A study of Mus musculus with 15 samples.

Results

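The autophagy genes described here are the 34 genes of the deposited expression table that carry an Atg symbol followed by a digit (18 genes) or belong to a list of 16 further genes of the core machinery and its cargo receptors, *Becn1*, *Sqstm1*, *Map1lc3a*, *Map1lc3b*, *Gabarap*, *Gabarapl1*, *Gabarapl2*, *Nbr1*, *Optn*, *Rb1cc1*, *Pik3c3*, *Pik3r4*, *Ambra1*, *Calcoco1*, *Rubcn* and *Epg5*. They were chosen by name and not by their values, from 20089 genes in the table. All 34 reached a mean of at least 0.1 FPKM and were tested together with the other genes that did so, 11743 in all. FPKM are fragments scaled by transcript length and by the mapped fragments of the sample, so levels of different genes are compared per length.

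The cells were bone marrow derived macrophages (BMDM) of wild-type C57BL/6 mice, grown with M-CSF, a factor that macrophages need to survive, for 3 days per the series design. The 5 groups of 3 samples were control (M-CSF without a further stimulus), RANKL for 4 hours, RANKL for 3 days (72 h), LPS for 4 hours and LPS for 3 days (72 h), all with M-CSF. RANKL is the cytokine that turns these precursors into bone-resorbing osteoclasts, and LPS is a bacterial cell wall component that activates macrophages. The study's methods give RANKL and LPS at the same concentration and name them as models of osteoclast formation and of inflammatory activation. Control cells kept in M-CSF for the 72 h were not analysed here, so at 72 h the stimulus and the time in culture cannot be told apart when a group is set against control. The study's methods give a donor age for macrophages of its knockout line and littermates but do not tie it to these samples, and whether the samples came from separate mice or cultures is not given in the sources used here, so p-values measure the spread between these samples only.

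Autophagy encloses cytoplasm in a double membrane, the autophagosome, and delivers it to the lysosome. A kinase scaffold (RB1CC1, ATG13, ATG101) starts the process, ATG9 vesicles and ATG2 bridges bring in lipid, a lipid kinase complex around PIK3C3 and BECN1 marks the membrane, and a conjugation system (ATG3, ATG5, ATG7, ATG10, ATG12, ATG16L1) attaches proteins of the LC3 and GABARAP family to it. Cargo receptors such as SQSTM1 (also called p62), NBR1 and OPTN hold ubiquitinated cargo against LC3 and are themselves degraded. SQSTM1 is also a signalling scaffold downstream of RANK, the RANKL receptor, and its mutations are a known cause of Paget disease of bone. Osteoclasts use LC3 lipidation proteins at their bone-facing border. All values here are mRNA levels, which do not measure autophagic flux.

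Depth was similar in all 15 samples, with 18306184 to 20330207 fragments on listed genes, and intervals and errors do not treat fragments as independent molecules. Of 10 osteoclast markers 9 rose in RANKL 72 h, and of 9 LPS response genes tested 9 rose at LPS 4 h and 7 at LPS 72 h. The summed level of 8 macrophage markers was 7395 to 9104 FPKM in control, 7338 to 8715 in RANKL 4 h and 10910 to 16260 in RANKL 72 h. It was 6004 to 7409 in LPS 4 h and 6168 to 17560 in LPS 72 h, with no marker at 0 throughout a group. Of the 8, 1 was called higher and 1 lower in each of RANKL 72 h and LPS 4 h, and 3 were called higher in LPS 72 h. LPS 72 h replicate 3 stood apart from replicates 1 and 2 of its group. Its summed LPS response genes were at 2130 FPKM against 4282 and 4490, its macrophage markers at 17560 against 6168 and 7931, and its 15 stromal markers at 621 against 152 and 186. Stromal markers were also higher in RANKL 72 h (515 to 2287 FPKM, highest in replicate 1) than in control (194 to 395), with 8 of 15 called higher. Markers of neutrophil precursors were lower at 72 h, at 152 to 1816 FPKM in LPS 72 h and 1849 to 7451 in RANKL 72 h against 7912 to 24340 in control. Of the rarer cell types, 4 of 5 B cell, 6 of 6 basophil and mast cell and 2 of 2 erythroid markers tested were called lower in RANKL 72 h, and 5, 5 and 1 of them in LPS 72 h. In bulk RNA fewer cells of a type and less RNA per cell cannot be told apart, and the part of these differences in the 72 h values below was not tested. At LPS 4 h none of 9 neutrophil precursor markers and none of 15 stromal or 6 basophil and mast cell markers passed the test, while 1 of 5 B cell and 1 of 2 erythroid markers were called lower.

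In control cells the 34 genes spanned levels from 0.353 ± 0.123 FPKM (mean ± SD, n = 3) for *Atg9b* to 460.0 ± 97.7 FPKM for *Sqstm1*. *Gabarap*, with 442 ± 51.2 FPKM, had a range that overlapped that of *Sqstm1*, and these levels did not differ beyond their spread. *Map1lc3b*, which encodes the LC3 protein commonly used as an autophagosome marker, followed at 65.4 ± 4.3 FPKM. *Becn1* (50.7 ± 2.13), *Gabarapl1* (48.7 ± 8.45) and *Atg3* (44.2 ± 1.77), a conjugation enzyme, came next with overlapping or adjacent ranges. The lipid transfer genes *Atg2a* and *Atg2b*, the protease gene *Atg4c* and the scaffold gene *Rb1cc1* were all under 10 FPKM in each control sample.

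**Figure D1:**
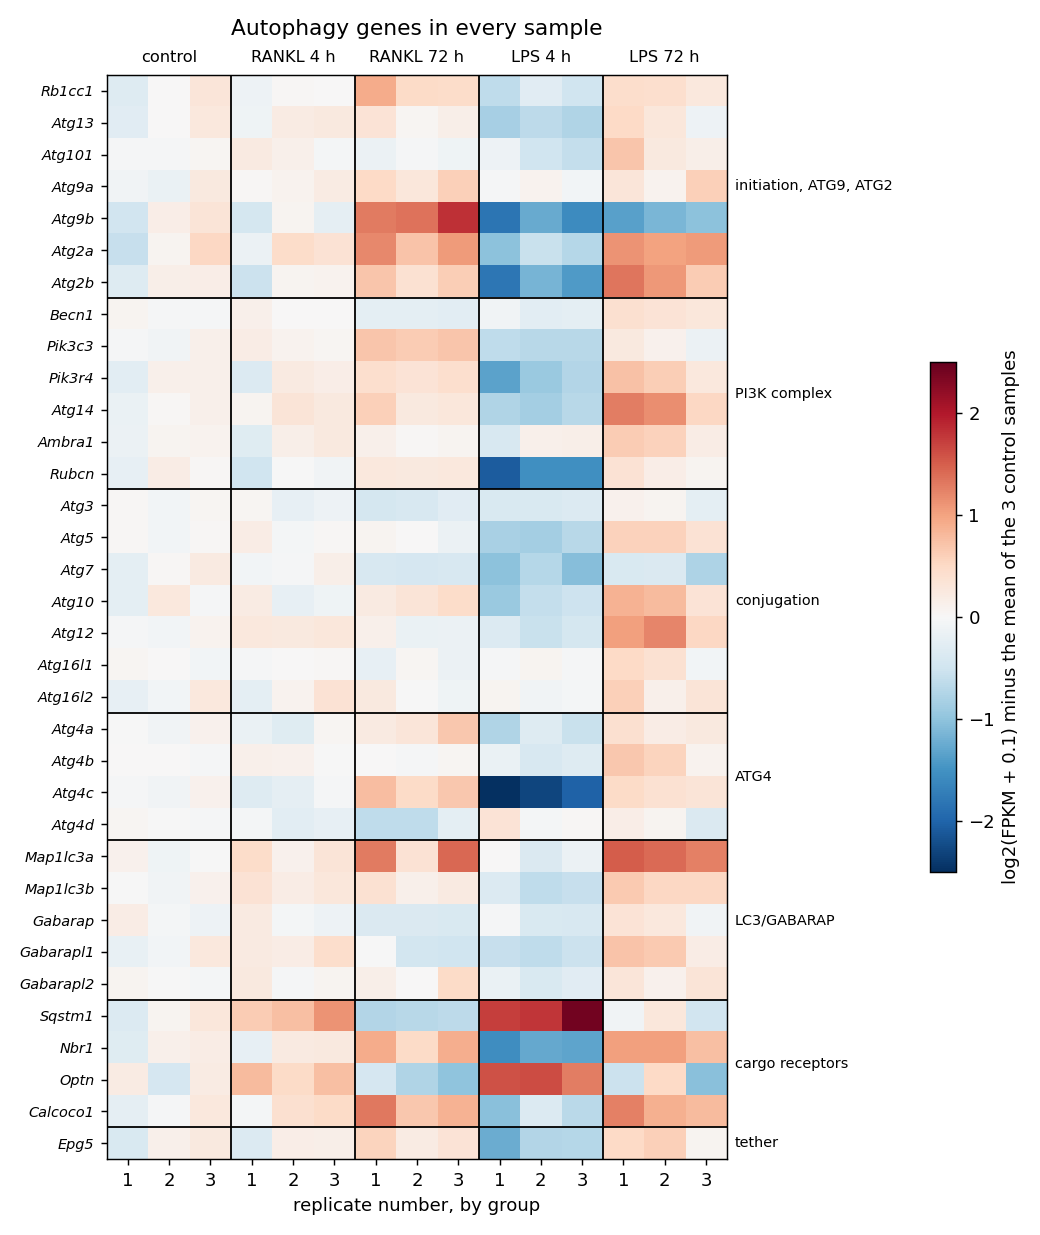
Each row is an autophagy gene, grouped by role, and each column a sample, with color giving log2(FPKM + 0.1) minus the mean of the 3 control samples on a scale cut at 2.5 in each direction. LPS 4 h was blue for most rows but red for *Sqstm1* and *Optn*, RANKL 4 h was close to white, and *Atg9b* was red in RANKL 72 h and blue in both LPS groups.

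The first comparison asked what RANKL did within 4 hours. None of the 34 genes was called changed between RANKL 4 h and control, where changed means a fold above 1.5 or below 0.66 with a limma p under 0.05 after Benjamini-Hochberg adjustment over all tested genes. The background was as low, since 0.119% of all tested genes were called. With an unadjusted p in place of the adjusted one 2 genes passed, *Sqstm1* and *Optn*, against 2.56% of all tested genes, and limma voom on recovered fragment counts called 0. *Sqstm1* was at 357, 473 and 551 FPKM in control replicates 1 to 3 and at 702, 767 and 989 FPKM in RANKL 4 h. Every RANKL 4 h sample lay above every control sample, the log2 fold change was 0.84 ± 0.23 (± SE), and the limma p was 0.00263 before and 0.331 after adjustment. *Optn*, another receptor for ubiquitinated cargo and a gene in which variants are linked to Paget disease, went from 8.62, 5.55 and 8.62 FPKM in control to 12.96, 10.3 and 12.6 in RANKL 4 h. The groups did not overlap here either, and the log2 fold change of 0.67 ± 0.31 had a limma adjusted p of 0.999. For the core genes the intervals were narrower around 0. The 95% interval of the log2 fold change was -0.13 to 0.23 for *Becn1*, -0.17 to 0.29 for *Atg5* and -0.30 to 0.34 for *Atg7*. These errors, p-values and intervals come from a fit that does not pair samples by replicate number. Control and RANKL 4 h samples of the same number deviated together (correlation 0.707 to 0.842), and a test paired within these groups alone was not run.

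LPS at 4 hours raised the transcripts of 2 cargo receptors and lowered many genes of the machinery. Of the 34 genes 2 rose and 15 fell against control, beside a background of 48.1% of all tested genes called, 8.43% higher and 39.7% lower. The median log2 fold change was -0.53 over the 34 genes and -0.52 over all tested genes, so the machinery as a whole moved with the rest of the table. After the median gene of each sample was subtracted, here called centring, 3 genes were higher (*Sqstm1*, *Optn* and *Atg4d*) and 5 lower (*Atg4c*, *Rubcn*, *Atg9b*, *Atg2b* and *Nbr1*), while 3400 of 11743 tested genes were called. The other 10 falls are therefore falls in FPKM that did not exceed that of the median gene by enough to be called.

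*Sqstm1* showed the largest rise. It was at 357, 473 and 551 FPKM in control and at 1507, 1567 and 2403 FPKM in LPS 4 h. All 3 LPS samples were above every control sample, and replicate 3 was the highest. The rise was 3.94-fold (log2 fold change 1.98 ± 0.23, limma adjusted p = 9.34e-06). *Optn* went from 8.62, 5.55 and 8.62 FPKM to 22.7, 23.4 and 18.3 FPKM, again with no overlap (2.84-fold, log2 fold change 1.51 ± 0.31, limma adjusted p = 0.000939). The other 2 cargo receptors among the members fell. *Nbr1*, which binds ubiquitinated cargo together with SQSTM1, was at 14.8, 20.2 and 20.9 FPKM in control and 6.25, 7.55 and 7.37 with LPS (log2 fold change -1.38 ± 0.17, adjusted p = 1.98e-05). *Calcoco1*, a receptor for reticulum and Golgi membrane, went from 6.59, 7.62 and 9.28 to 3.71, 6.14 and 4.82 FPKM. Its fall of -0.68 ± 0.22 was not called without LPS 4 h replicate 1 (adjusted p = 0.0824), without control replicate 3 (adjusted p = 0.0738) or after centring. Both directions within 1 gene class are visible in the plot of the 4 cargo receptors.

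**Figure D2:**
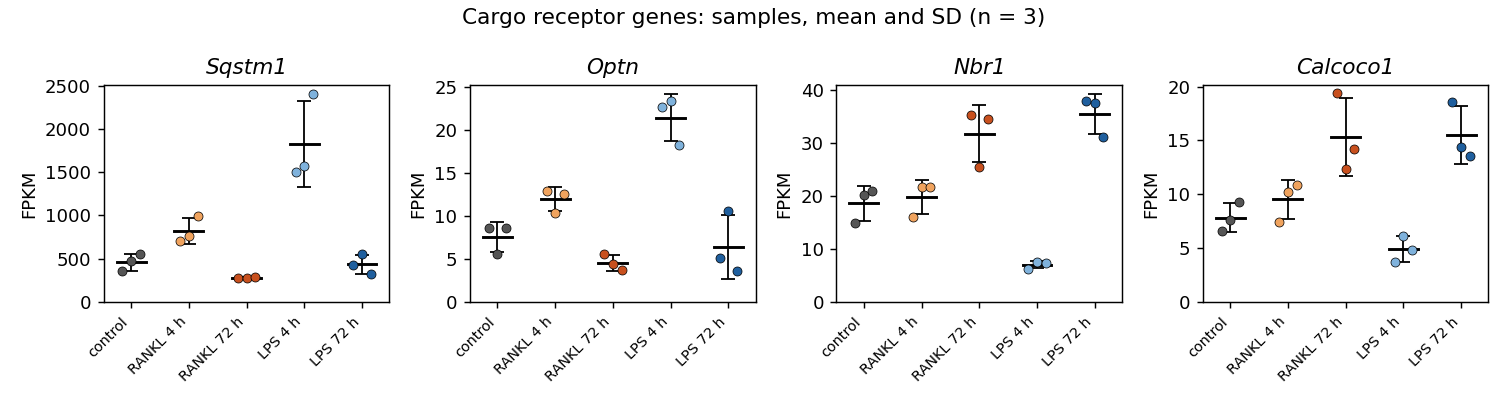
FPKM of *Sqstm1*, *Optn*, *Nbr1* and *Calcoco1* in each sample (points), with the mean (bar) and SD (error bar, n = 3) per group and each vertical axis starting at 0. *Sqstm1* and *Optn* peaked in LPS 4 h, at 1826 ± 501 and 21.5 ± 2.75 FPKM, the group in which *Nbr1* and *Calcoco1* had their lowest means.

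The 250 bases before the RefSeq start of both genes that rose are printed here because they are the sequence nearest to the change (GRCm38.p6, 5′ to 3′ on the gene's strand, chr11:50210821-50211070, minus strand for *Sqstm1* and chr2:5064118-5064367, minus strand for *Optn*). They were searched on both strands for TGANTCA (an AP-1 site), a kappaB site (GGG and TTTCC with any 2 bases between), TGACNNNGC (the core of an antioxidant response element) and CACGTG (an E-box). None of these letters was found in either window, so no base is in capitals.
Sqstm1: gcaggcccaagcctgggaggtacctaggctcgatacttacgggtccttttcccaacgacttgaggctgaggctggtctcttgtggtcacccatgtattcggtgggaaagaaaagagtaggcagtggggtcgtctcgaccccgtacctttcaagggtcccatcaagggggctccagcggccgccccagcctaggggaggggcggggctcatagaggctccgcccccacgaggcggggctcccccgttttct
Optn: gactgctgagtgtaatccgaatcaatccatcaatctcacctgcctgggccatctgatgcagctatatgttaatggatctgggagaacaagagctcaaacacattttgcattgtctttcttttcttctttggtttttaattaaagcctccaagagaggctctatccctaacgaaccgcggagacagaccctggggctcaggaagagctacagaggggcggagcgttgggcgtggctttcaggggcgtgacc
These windows are descriptions of the reference sequence, and the absence of a match says only that these letters are not in this window. *Sqstm1* lies at chr11:50199366-50210827 (minus strand) and *Optn* at chr2:5020642-5064051 (minus strand) in GRCm38. In the annotation the exons of *Sqstm1* share bases with *Mrnip* on the opposite strand and those of *Optn* with an antisense transcript, and without a stated strand setting the reads of such partners cannot be told apart. The same limit holds for *Atg2b* (with *Gskip*), *Rubcn* (*Fyttd1*), *Becn1* (*Cntd1*), *Atg4d* (*Kri1*), *Atg9a* (*Ankzf1*), *Atg16l2* (*Fchsd2*) and *Map1lc3b* (*Zcchc14*). It also holds for *Gabarapl1*, *Atg14* and *Rb1cc1*, which overlap noncoding transcripts on the opposite strand.

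Among the members with a mean of at least 1 FPKM, *Atg4c*, which encodes one of the proteases that process LC3, had the largest fall. It was at 2.59, 2.49 and 2.88 FPKM in control and 0.257, 0.463 and 0.575 with LPS, 5.35-fold lower (log2 fold change -2.42 ± 0.21, limma adjusted p = 6.95e-07). Its relatives had smaller changes, with log2 fold changes of -0.54 ± 0.16 for *Atg4a*, -0.30 ± 0.13 for *Atg4b* and 0.11 ± 0.16 for *Atg4d*. None of them was called, and the 4 changes were not tested against each other. Every LPS 4 h sample of *Atg4a* (2.98, 4.07 and 3.44 FPKM) and *Atg4b* (10.8, 9.21 and 9.67) lay below every control sample. *Atg4a* was called without LPS 4 h replicate 2 (-0.65, limma adjusted p = 0.0069). *Rubcn*, which encodes an inhibitor of the lipid kinase complex that is also used in LC3-associated phagocytosis, went from 6.50, 8.61 and 7.69 to 1.72, 2.55 and 2.53 FPKM (log2 fold change -1.71 ± 0.18, adjusted p = 3.45e-06). *Atg2b*, for a lipid transfer protein, went from 2.87, 4.04 and 4.09 to 0.958, 1.57 and 1.29 FPKM (log2 fold change -1.47 ± 0.24, adjusted p = 0.000159). For *Atg4c*, *Rubcn* and *Atg2b* the LPS and control samples did not overlap.

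The kinase complex and conjugation genes had smaller falls. *Pik3r4*, the regulatory subunit of the lipid kinase, had a log2 fold change of -0.999, its catalytic subunit *Pik3c3* -0.67 and *Atg14*, which directs the complex to autophagosomes, -0.77. *Becn1*, the fourth core subunit, was at 53.1, 49.5 and 49.4 FPKM in control and 47.7, 42.4 and 42.6 in LPS 4 h, a log2 fold change of -0.20 ± 0.08 that was not called. *Atg7*, the activating enzyme of both conjugation reactions, went from 14.1, 17.2 and 19.5 to 8.15, 10.2 and 7.96 FPKM (log2 fold change -0.94 ± 0.15, adjusted p = 0.000125). *Atg5*, the partner of ATG12 in a conjugate, went from 20.8, 19.4 and 20.8 to 11.6, 11.3 and 12.6 FPKM (-0.78 ± 0.11, adjusted p = 3.53e-05). Every one of these falls was lost on centring, where *Pik3r4* had -0.43 (adjusted p = 0.0542), *Atg7* -0.37 and *Atg5* -0.21. The remaining falls were those of *Atg13* (-0.74), *Atg2a* (-0.76), *Atg10* (-0.68), *Epg5* (-0.90), a tether for fusion with lysosomes, and *Atg9b*. *Atg10* and *Atg2a* were not called without LPS 4 h replicate 1, *Atg10* also without control replicate 2 and *Atg2a* also without control replicate 3. None of the 5 LC3 and GABARAP genes was called at LPS 4 h, either in FPKM or on centring. *Gabarapl1* came closest to the fold limit (-0.585), at 32.3, 31.0 and 33.2 FPKM, below every control sample (42.2, 45.8 and 58.3). It was called without control replicate 1 or 2 or LPS 4 h replicate 3, and *Map1lc3b* without LPS 4 h replicate 1. *Map1lc3b* was at 51.6, 41.9 and 44.04 FPKM against 64.9, 61.4 and 69.95 in control (log2 fold change -0.52 ± 0.11, adjusted p = 0.000962), below the fold limit.

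Promoter sequence was available from RefSeq (GRCm38.p6) for 27 of the 34 genes, as windows from 250 bases before to 50 after the start. The E-box CACGTG, a palindrome that reads the same on both strands and is the core of the sites used by TFEB, a transcription factor of lysosome and autophagy genes, occurred in the windows of 5 of them (18.5%), *Atg3*, *Atg5*, *Atg7*, *Atg14* and *Rubcn*, against 8.09% of all 27025 genes. The longer CLEAR element, an E-box with GT before and AC after it, occurred in 0 of 27 and in 0.37% of all genes. The E-boxes are shown in capitals inside 30 bases. At LPS 4 h 4 of the 5 genes were called lower, beside 39.7% of all tested genes, and 1 of them, *Rubcn*, on centring. *Atg3* (-0.37) was not called, and nothing about the motif is read from this count. They lie at chr10:44268313-44268342, plus strand (*Atg5*), chr6:114670952-114670981, plus strand (*Atg7*), chr14:47568418-47568447, minus strand (*Atg14*, across the start), chr16:32868437-32868466, minus strand (*Rubcn*) and, for the first of a pair in *Atg3*, chr16:45158723-45158752, plus strand. The RefSeq starts used for *Atg7*, *Rubcn* and *Atg14* lie inside the annotated genes (chr6:114643097-114860614, plus strand, chr16:32821703-32877766, minus strand, and chr14:47540893-47570649, minus strand), downstream of their outermost starts.
Atg5: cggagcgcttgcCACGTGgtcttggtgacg
Atg7: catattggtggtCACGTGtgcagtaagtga
Atg14: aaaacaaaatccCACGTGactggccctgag
Rubcn: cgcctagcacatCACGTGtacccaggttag
Atg3: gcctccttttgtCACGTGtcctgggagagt
Whether a factor bound these sites was not measured. TGACNNNGC occurred in the windows of *Atg13* and *Map1lc3b* (7.41% of the 27, against 14.0% of all genes). TGANTCA and the kappaB site occurred in none of the 27 (8.97% and 1.89% of all genes).

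After 72 h of RANKL, the time at which osteoclast genes were high, 8 autophagy genes had risen and 1 had fallen against control, beside 24.2% of all tested genes called, 16.6% higher and 7.54% lower. The share of members called, 9 of 34, was near that background. The 8 were *Atg9b*, *Map1lc3a*, *Atg2a*, *Calcoco1*, *Nbr1*, *Pik3c3*, *Atg4c* and *Rb1cc1*, and the 1 was *Sqstm1*. The median tested gene was higher in RANKL 72 h by a log2 of 0.16. After centring the split was 4 higher (*Atg9b*, *Map1lc3a*, *Atg2a* and *Calcoco1*) and 4 lower (*Sqstm1*, *Optn*, *Atg7* and *Atg4d*). Over all 11743 tested genes it was 1167 higher and 1428 lower.

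*Map1lc3a*, an LC3 gene expressed at a lower level than *Map1lc3b*, was at 9.76, 8.35 and 8.94 FPKM in control and 22.3, 11.5 and 24.6 in RANKL 72 h (2.04-fold, log2 fold change 1.03 ± 0.22, limma adjusted p = 0.00394). Replicate 2 was well below the other 2 samples but above every control sample, and it also had the lowest summed osteoclast markers of the group, 1721 FPKM against 3168 and 5474. *Atg2a*, the second lipid transfer gene, went from 3.75, 5.91 and 8.18 to 13.2, 9.39 and 11.9 FPKM (log2 fold change 0.99 ± 0.25, adjusted p = 0.00825), also without overlap. *Calcoco1* reached 19.4, 12.4 and 14.2 FPKM (0.95 ± 0.22, adjusted p = 0.00636) and *Nbr1* 35.3, 25.6 and 34.6 FPKM (0.77 ± 0.17, adjusted p = 0.00511), both above all control samples. For *Nbr1* the call was lost on centring (0.55). *Pik3c3*, the lipid kinase itself, was at 10.2, 9.77 and 11.4 FPKM in control and at 16.99, 16.3 and 16.8 in RANKL 72 h, with little spread within either group (log2 fold change 0.68 ± 0.11, adjusted p = 0.000787), and was lost on centring as well (0.46). The rises of *Atg4c* (0.64 ± 0.21) and *Rb1cc1* (0.62 ± 0.18) were close to the limits. Neither was called on centring or without RANKL 72 h replicate 1 or control replicate 1, and *Atg4c* also not without RANKL 72 h replicate 3 or control replicate 2.

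*Sqstm1* moved the other way. It was at 274, 279 and 289.5 FPKM in RANKL 72 h, below all control samples (357, 473 and 551), with a log2 fold change of -0.69 ± 0.23 (limma adjusted p = 0.0355). The fall remained called on centring (-0.91) but was not called without control replicate 2 or 3 or without any single RANKL 72 h replicate (adjusted p = 0.0697 to 0.121). *Optn* was at 5.57, 4.38 and 3.67 FPKM, a log2 fold change of -0.72 ± 0.31 whose groups overlapped and which was called only on centring (-0.94). The conjugation genes gave no call in FPKM. *Atg5* was at 21.2, 20.4 and 18.4 FPKM (95% interval of the log2 fold change -0.25 to 0.20), *Atg7* at 12.8, 12.5 and 12.7 FPKM (-0.40 ± 0.15, adjusted p = 0.0545), and *Becn1* at 42.6, 42.5 and 42.4 FPKM (-0.25 ± 0.08).

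*Atg9b* is described although its mean over all samples, 0.391 FPKM, is below the level set for named values, and it was singled out after its values were seen. It encodes the less widely expressed of the ATG9 scramblases that seed autophagosomes. It was at 0.215, 0.397 and 0.448 FPKM in control, 0.983, 1.04 and 1.47 in RANKL 72 h and 0.0722, 0.0995 and 0.116 in LPS 72 h. These values rest on 18 to 35 fragments per sample in control, 75 to 116 in RANKL 72 h and 6 to 9 in LPS 72 h. The log2(FPKM + 0.1) fold change was 1.499 ± 0.27 with RANKL (adjusted p = 0.00131) and -1.18 ± 0.27 with LPS (adjusted p = 0.00456), and the added 0.1 understates both. At LPS 4 h, with 2 to 7 fragments per sample, it was -1.55 ± 0.27. *Atg9a*, its widely expressed paralog, was at 10.3, 9.74 and 12.9 FPKM in control and 15.4, 13.3 and 16.5 in RANKL 72 h (0.46 ± 0.15, not called). Exons of *Atg9b* share bases with *Nos3* on the opposite strand, which was at 0.102 ± 0.0728 FPKM in control and 0.171 ± 0.0897 in RANKL 72 h, and the share of reads from either gene cannot be told apart.

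**Figure D3:**
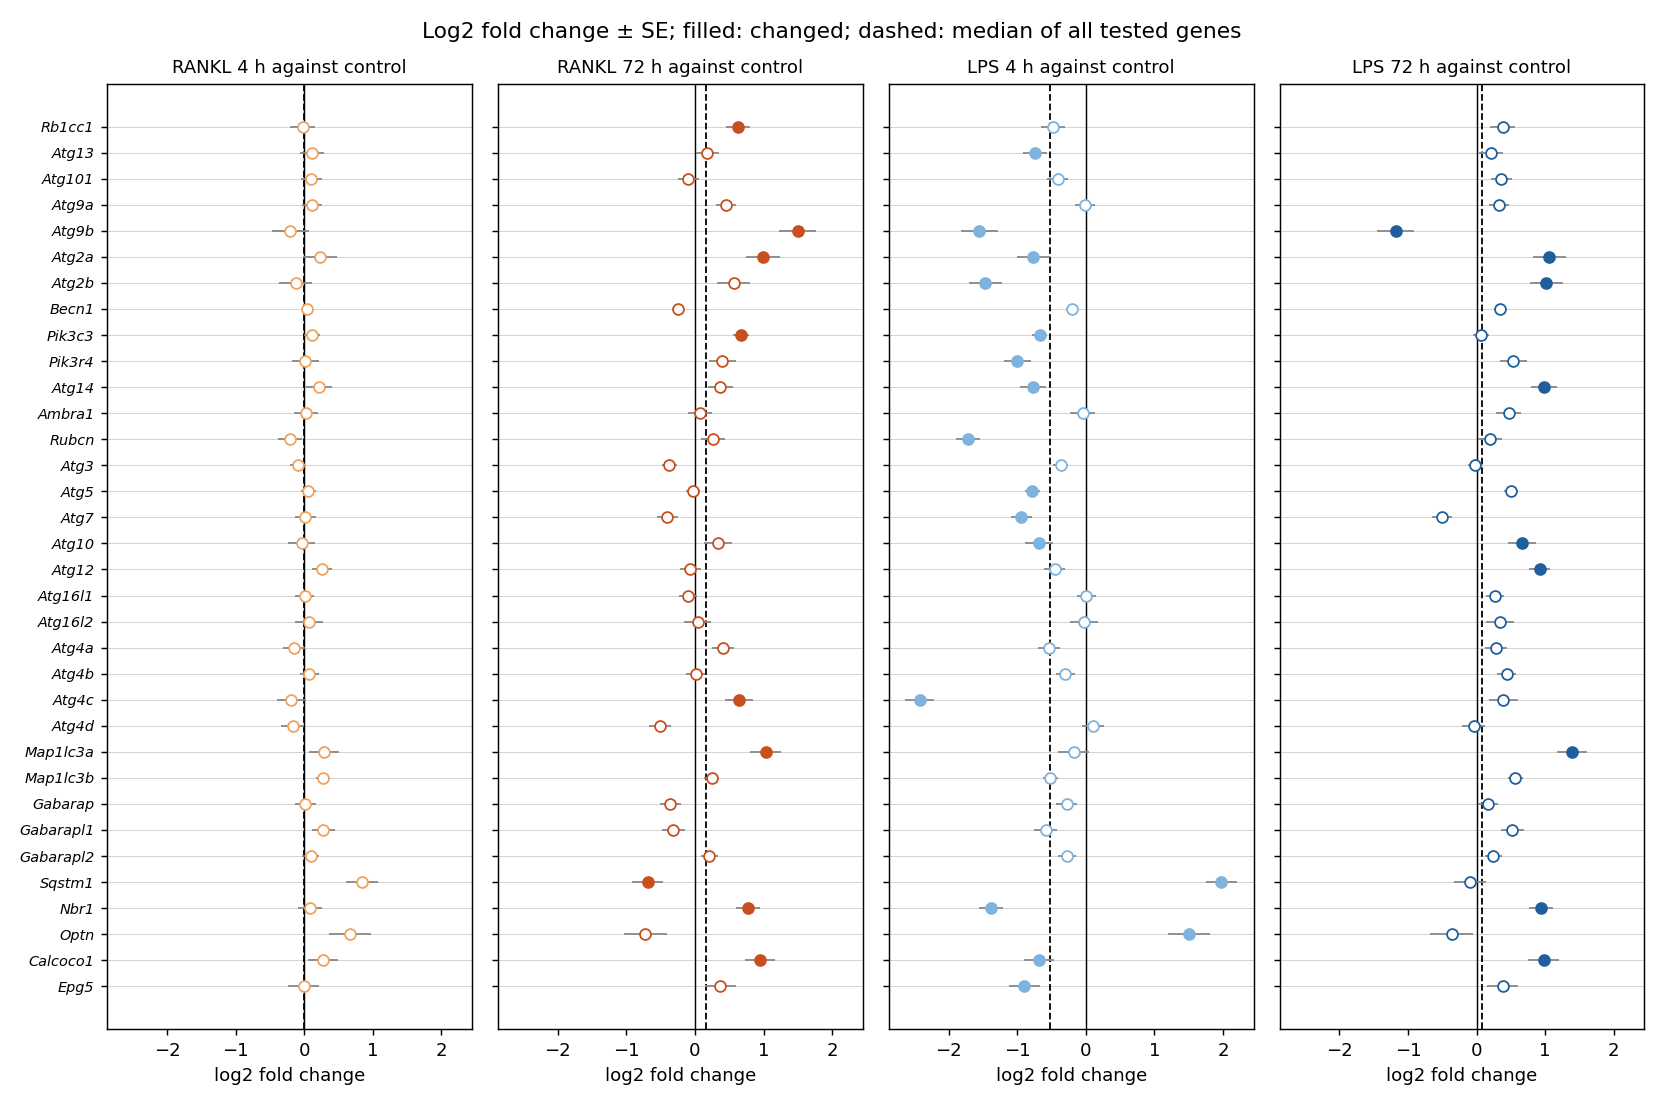
Log2 fold change against control on the log2(FPKM + 0.1) scale (horizontal axis, ± SE) of the 34 genes for RANKL and LPS at 4 h and 72 h, with filled points for genes called changed and a dashed line at the median of all tested genes. RANKL 4 h has no filled point, LPS 4 h has 17 around a median of -0.52, and each 72 h panel has 9.

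After 72 h of LPS the machinery was no longer low. Against control 8 genes rose, *Map1lc3a*, *Atg2a*, *Atg2b*, *Atg14*, *Calcoco1*, *Nbr1*, *Atg12* and *Atg10*, and *Atg9b* fell, beside 27.4% of all tested genes called, 13% higher and 14.4% lower. *Map1lc3a* was at 25.8, 24.1 and 21.6 FPKM (2.62-fold over control, log2 fold change 1.39 ± 0.22, limma adjusted p = 0.000394) and *Atg2a* at 12.4, 11.5 and 11.9 FPKM (1.06 ± 0.25, adjusted p = 0.00451). *Atg2b* reached 9.27, 7.78 and 5.69 FPKM (1.02 ± 0.24, adjusted p = 0.00507). These 3 genes were above every control sample in each LPS 72 h sample. *Atg14* was at 3.49, 4.01 and 4.26 FPKM in control and at 9.69, 8.86 and 5.63 after LPS (0.99 ± 0.19, adjusted p = 0.0013). *Calcoco1* was at 18.6, 14.4 and 13.6 FPKM (0.98 ± 0.22) and *Nbr1* at 37.9, 37.5 and 31.1 FPKM (0.94 ± 0.17), values near those in RANKL 72 h. The rise of *Atg10* (0.66 ± 0.20) was not called on centring, nor without LPS 72 h replicate 1 or 2 or control replicate 1 or 3.

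*Sqstm1* and *Optn* overlapped their control values after LPS for 72 h, at 423, 550.4 and 326 and 5.07, 10.6 and 3.55 FPKM, with 95% intervals of the log2 fold change of -0.59 to 0.40 and -1.03 to 0.30. *Becn1* (66.5, 64.4 and 61.9 FPKM, 0.34 ± 0.08), *Atg5* (30.6, 30.2 and 26.1 FPKM, 0.503 ± 0.11) and *Map1lc3b* (103, 93.7 and 93.8 FPKM, 0.56 ± 0.11) were above all control samples with limma adjusted p of 0.00684, 0.00247 and 0.00124, but below the fold limit. *Atg7* was the conjugation gene that lay below control, at 12.9, 13.03 and 9.80 FPKM (-0.503 ± 0.15, also below the fold limit). Without LPS 72 h replicate 3, the library that stood apart, 14 genes were called, beside 3959 of 11743 tested genes in that fit against 3212 with all libraries. The same 9 were among them, and the others were *Ambra1*, *Atg4b*, *Gabarapl1*, *Map1lc3b* and *Pik3r4*, all higher.

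Set directly against each other at 4 h, RANKL was higher than LPS for 18 genes and lower for 2, *Sqstm1* and *Optn*, beside 50% of all tested genes called, 41% higher and 8.98% lower, and a median of 0.53 over them. On centring 5 genes were higher (*Atg9b*, *Atg2b*, *Rubcn*, *Atg4c* and *Nbr1*) and 3 lower (*Sqstm1*, *Optn* and *Atg4d*). Over all 11743 tested genes centring gave 1580 higher and 1905 lower. *Sqstm1* was 2.20-fold lower in RANKL 4 h than in LPS 4 h (log2 fold change -1.14 ± 0.23, limma adjusted p = 0.000767). *Optn* differed by -0.84 ± 0.31 (adjusted p = 0.0308), a call that was lost without LPS 4 h replicate 1 or 2 or RANKL 4 h replicate 2 or 3 (adjusted p = 0.0538 to 0.0964).

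At 72 h the stimuli differed in 5 genes, beside 36.1% of all tested genes, 23.3% higher and 12.8% lower. With an adjusted p and no fold limit it was 15 of 34 genes, beside 5347 of 11743. *Atg9b* and *Pik3c3* were higher with RANKL, and *Atg12*, *Gabarapl1* and *Atg14* were lower. *Atg9b* had a log2(FPKM + 0.1) difference of 2.68 ± 0.27 (limma adjusted p = 4.66e-06) with no overlap. *Atg12*, the ubiquitin-like protein joined to ATG5, was at 24.3, 19.8 and 20.1 FPKM with RANKL and 45.6, 52.3 and 32.03 with LPS (-0.99 ± 0.15, adjusted p = 0.000151), against 22.1, 21.3 and 23.8 in control. *Gabarapl1*, a GABARAP relative, was at 48.1, 35.1 and 34.2 FPKM with RANKL and 79.4, 75.8 and 55.1 with LPS (-0.84 ± 0.17, adjusted p = 0.00114), against 42.2, 45.8 and 58.3 in control. Neither gene's groups overlapped between the stimuli. *Pik3c3* was at 12.3, 11.2 and 9.43 FPKM with LPS, and its difference of 0.61 ± 0.11 ended on centring and without LPS 72 h replicate 3. *Atg14* differed by -0.62 ± 0.19 with overlapping groups and was not called without LPS 72 h replicate 1 or 2 or RANKL 72 h replicate 2 or 3 (adjusted p = 0.0521 to 0.0806).

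Without LPS 72 h replicate 3 the count at 72 h was 11, with 1 gene higher in RANKL and 10 lower, beside 4846 of 11743 tested genes. The added genes were *Atg2b*, *Atg4b*, *Atg4d*, *Atg5*, *Becn1*, *Gabarap* and *Sqstm1*. On centring it was 9, with 1 higher and 8 lower, beside 4282 of 11743, where the lower genes were *Becn1*, *Atg14*, *Atg5*, *Atg12*, *Atg4d*, *Gabarap*, *Gabarapl1* and *Sqstm1*. *Becn1* (1.51-fold lower with RANKL, log2 difference -0.59 ± 0.08, adjusted p = 8.29e-05) and *Sqstm1* (-0.59 ± 0.23, adjusted p = 0.048) missed the fold limit narrowly in FPKM. Genes that had risen with both stimuli against control were not called between them. The 95% interval was -0.84 to 0.12 for *Map1lc3a*, -0.60 to 0.46 for *Atg2a*, -0.54 to 0.21 for *Nbr1* and -0.51 to 0.45 for *Calcoco1*. That of *Map1lc3a* reached past the fold limit, so a lower level with RANKL is not excluded.

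**Figure D4:**
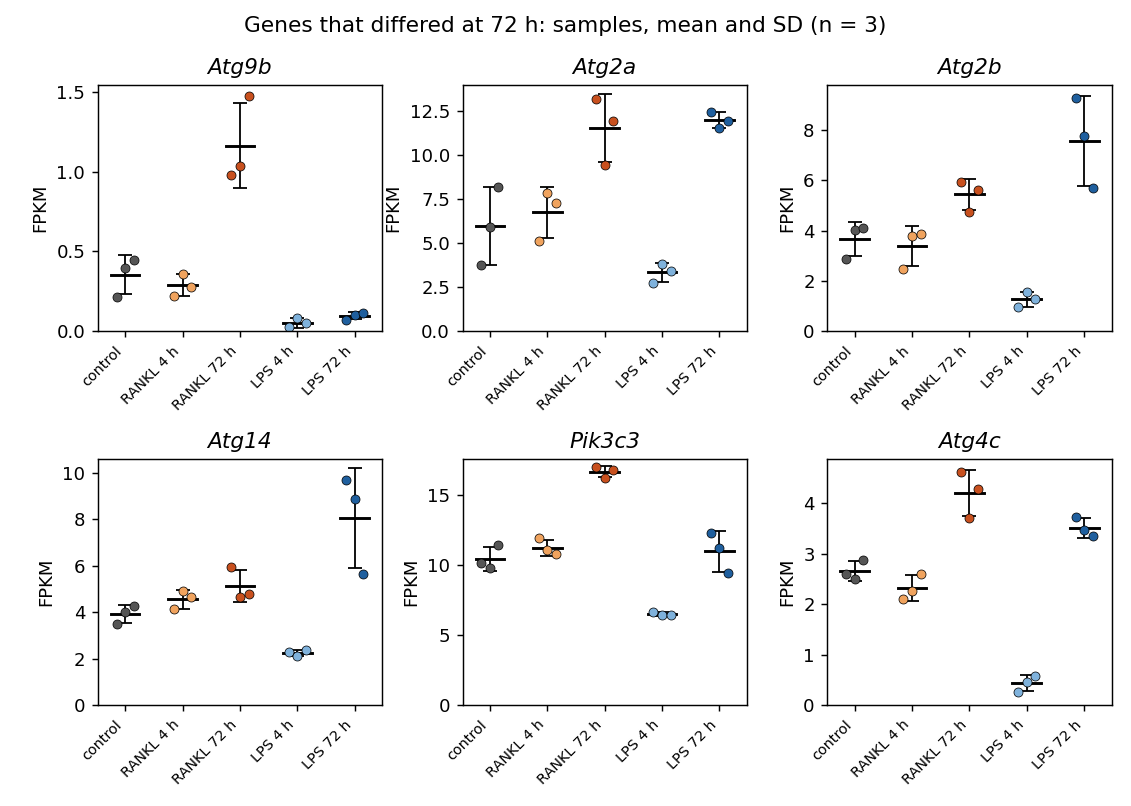
FPKM of *Atg9b*, *Atg2a*, *Atg2b*, *Atg14*, *Pik3c3* and *Atg4c* in each sample (points), with the mean (bar) and SD (error bar, n = 3) per group. *Atg9b* was highest in RANKL 72 h (1.16 ± 0.269 FPKM), while *Atg2b* and *Atg14* had their highest means in LPS 72 h (7.58 ± 1.8 and 8.06 ± 2.15 FPKM).

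Over time within a stimulus, 11 genes differed between RANKL 72 h and RANKL 4 h (8 higher and 3 lower, background 23.3%, 16.4% higher and 6.83% lower) and 23 between LPS 72 h and LPS 4 h (21 higher and 2 lower, background 58.1%, 44.2% higher and 13.9% lower). On centring the split for RANKL was 2 higher and 4 lower, beside 1141 higher and 1351 lower of 11743 tested genes. For LPS it was 13 higher and 3 lower, beside 2209 higher and 3224 lower. *Sqstm1* fell from 4 h to 72 h with both stimuli, by a log2 fold change of -1.53 ± 0.23 with RANKL (limma adjusted p = 0.000363) and -2.07 ± 0.23 with LPS (adjusted p = 3.9e-06). *Optn* did the same, with -1.39 ± 0.31 and -1.87 ± 0.31. *Gabarapl1* fell with RANKL (-0.60 ± 0.17) and rose with LPS (1.10 ± 0.17), from 56.1, 55.02 and 65.3 and 32.3, 30.99 and 33.2 FPKM at 4 h. Its fall with RANKL was not called without RANKL 4 h replicate 3 or RANKL 72 h replicate 2 or 3 (adjusted p = 0.05995 to 0.06771), nor by limma voom. The largest rise with LPS was that of *Atg4c* (2.81 ± 0.21, 7.03-fold), which returned from its low level at 4 h to 3.73, 3.47 and 3.35 FPKM. The RANKL count was 7 without RANKL 72 h replicate 1, 6 without RANKL 72 h replicate 3 and 7 without RANKL 4 h replicate 1. Over all 11743 tested genes the calls in these fits were 2399, 2218 and 1939. *Atg2a*, *Atg2b* and *Calcoco1* were lost in each of these 3 cases.

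The test of the difference between the stimuli in this change from 4 h to 72 h called 23 genes, beside 49% of all tested genes, 15.4% higher and 33.7% lower. For 22 of them the change was lower with RANKL than with LPS and for *Atg9b* it was higher. The median over the 34 genes was -0.85 and over all tested genes -0.33, and on centring 12 genes were called, 2 higher and 10 lower. Of all 11743 tested genes 2793 were then called higher and 2282 lower. *Sqstm1* (0.54 ± 0.32, limma adjusted p = 0.174) and *Optn* (0.48 ± 0.44, adjusted p = 0.384) were not called in FPKM, and *Sqstm1* was higher on centring (0.97).

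The LC3 and GABARAP family was dominated by *Gabarap* at the mRNA level. *Gabarap* made up 73.6% ± 3.19 (SD, n = 3) of the summed FPKM of the 5 family genes in control, *Map1lc3b* 10.96% ± 1.17 and *Map1lc3a* 1.505% ± 0.0576. The sum itself was 571 to 652 FPKM in control, 497 to 536 in RANKL 72 h and 627 to 805 in LPS 72 h. The share of *Map1lc3a* was 2.32% to 4.71% in RANKL 72 h and 3.19% to 3.44% in LPS 72 h, both above its control range of 1.45% to 1.57%. *Map1lc3b* held 14.3% to 15.9% in RANKL 72 h against 9.95% to 12.2% in control. *Gabarap* was at 499.5, 426 and 401 FPKM in control and 343, 345 and 340.0 in RANKL 72 h, below every control sample, with a log2 fold change of -0.36 ± 0.15 (limma adjusted p = 0.0846) that was not called. *Map1lc3b* was at 83.8, 74.7 and 79.2 FPKM in RANKL 4 h and 85.1, 71.4 and 76.1 in RANKL 72 h, above control by 0.28 ± 0.11 and 0.24 ± 0.11 on the log2 scale, with adjusted p of 0.761 and 0.0989. *Gabarapl2* stayed between 26.4 and 47.9 FPKM in all 15 samples and was called in none of the comparisons with control.

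**Figure D5:**
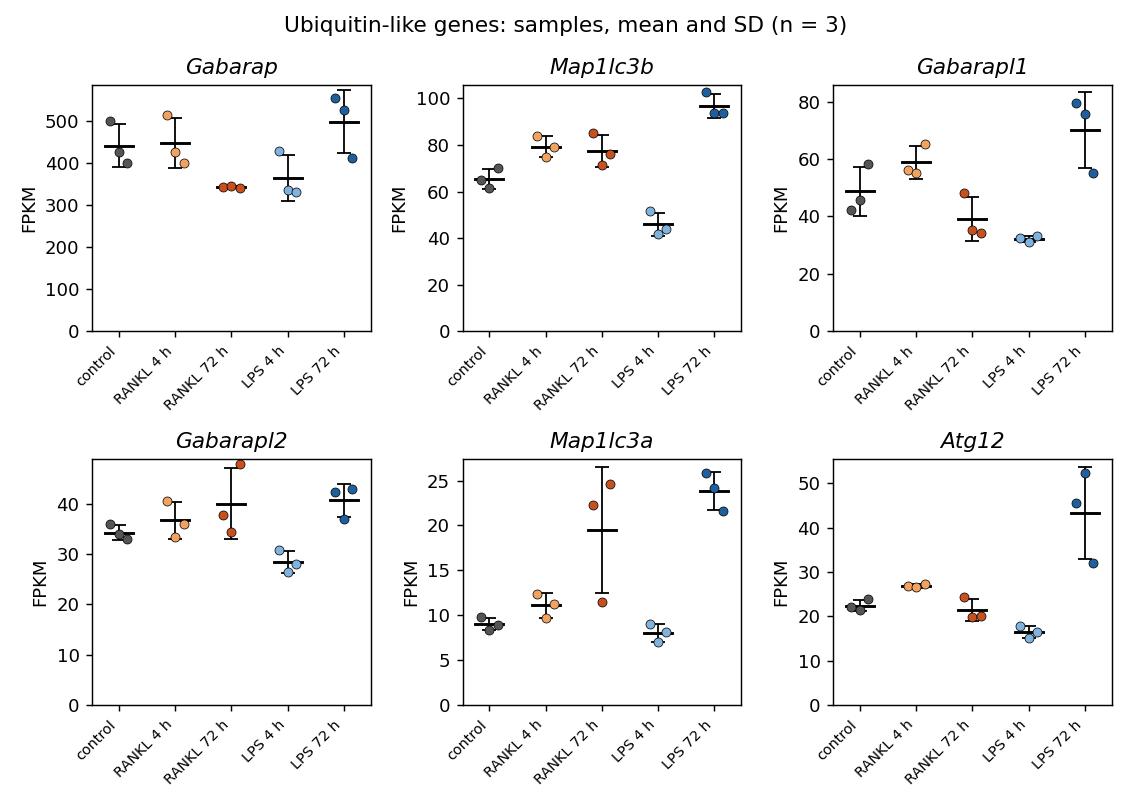
FPKM of the 5 LC3 and GABARAP genes and of *Atg12* in each sample (points), with the mean (bar) and SD (error bar, n = 3) per group and axes starting at 0. *Map1lc3a* was high in both 72 h groups (19.5 ± 6.98 and 23.8 ± 2.13 FPKM), whereas *Atg12* was high in LPS 72 h alone (43.3 ± 10.3 FPKM).

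The calls against control are given here by role, beside 8.43% of all tested genes higher and 39.7% lower at LPS 4 h. The shares were 16.6% higher and 7.54% lower at RANKL 72 h, and 13% higher and 14.4% lower at LPS 72 h. Of the 4 cargo receptors 2 rose and 2 fell at LPS 4 h, 2 rose and 1 fell at RANKL 72 h, and 2 rose at LPS 72 h (*Nbr1* and *Calcoco1*). Of the 7 genes of initiation and lipid supply, 4 fell at LPS 4 h, 3 rose at RANKL 72 h, and at LPS 72 h 2 rose and 1 fell. Of the 6 lipid kinase genes, 4 fell at LPS 4 h, and 1 rose at each of RANKL 72 h (*Pik3c3*) and LPS 72 h (*Atg14*). Of the 7 conjugation genes, 3 fell at LPS 4 h, none was called at RANKL 72 h and 2 rose at LPS 72 h (*Atg10* and *Atg12*). On centring the falls at LPS 4 h were 2 of 7 for initiation and lipid supply, 1 of 6 for the lipid kinase and 0 of 7 for conjugation. Of all 11743 tested genes 1529 were then called lower. *Atg16l1*, whose product places the conjugate on the membrane, and *Atg16l2* were called in none of the 4 comparisons with control. *Ambra1*, a BECN1 regulator, *Atg101* and *Atg9a* were also called in none of them.

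Around the 34 genes, 77 further genes of the pathway were listed, of which 74 were tested. They are other cargo receptors, regulators of nutrient sensing through mTOR and AMPK, transcription factors, and genes of fusion and maturation. None was called at RANKL 4 h. At RANKL 72 h 9 rose and 5 fell, beside 24.2% of all tested genes called. At LPS 4 h 9 rose and 35 fell (12 and 15 on centring), beside 8.43% higher and 39.7% lower, and at LPS 72 h 8 rose and 5 fell, beside 27.4% called. These counts are not read as particular to the pathway. On centring the split was 6 higher and 13 lower at RANKL 72 h and 7 higher and 8 lower at LPS 72 h. Over all 11743 tested genes centring gave 1167 higher and 1428 lower at RANKL 72 h. It gave 1871 and 1529 at LPS 4 h, and 1212 and 1887 at LPS 72 h. *Bnip3*, a receptor for mitochondria that is also induced by low oxygen, rose most at RANKL 72 h. It went from 19.8, 7.77 and 8.91 FPKM in control to 179, 138 and 157 (14.02-fold, log2 fold change 3.81 ± 0.37, limma adjusted p = 1.19e-05), and in LPS 72 h it was at 36.1, 48.2 and 44.5 FPKM (1.93 ± 0.37, adjusted p = 0.00128). All 6 samples at 72 h were above all control samples. *Deptor*, an inhibitor of mTOR, rose by 2.22 ± 0.37 in RANKL 72 h, and *Irgm1*, an interferon-inducible GTPase linked to autophagy of microbes, changed by -1.56 ± 0.35.

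Among the 74 further pathway genes tested, *Sesn1*, *Tfeb* and *Plekhm1* had the largest falls at LPS 4 h. *Sesn1*, a stress-induced inhibitor of mTOR signalling, was at 17.7, 30.8 and 22.6 FPKM in control and 1.08, 0.823 and 0.593 in LPS 4 h, 25.5-fold lower (log2 fold change -4.67 ± 0.36, limma adjusted p = 2.41e-07). *Tfeb* went from 9.72, 10.4 and 11.9 to 1.69, 1.05 and 1.31 FPKM (-2.92 ± 0.17, adjusted p = 2e-08). *Plekhm1*, an adaptor for fusion with lysosomes that osteoclasts need to resorb bone, went from 39.9, 55.7 and 64.3 to 5.65, 6.47 and 8.82 FPKM (-2.91 ± 0.21, adjusted p = 1.27e-07). All 3 falls were several times that of the median gene and were still called on centring. At LPS 72 h *Sesn1* remained lower (-1.27 ± 0.36), with 6.34, 7.44 and 18.2 FPKM and the highest value in replicate 3. *Cebpb*, a transcription factor of macrophages, was higher there (1.21 ± 0.13), at 289.6, 279 and 273 FPKM against 139.5, 112 and 113 in control.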

How the data were processed

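RNA-seq of 15 samples (5 groups of 3) was deposited as 1 table of FPKM per gene, which the authors made from their reads; the submitters' processing notes name StringTie, GRCm38.p4 and mm10, and the aligner and strand setting are not given in the sources used here. The table is alphabetical and its last, incomplete entry was left out, so genes later in the alphabet, *Ulk1* and *Wipi2* among them, were not analysed here. FPKM were taken as log2(FPKM + 0.1) and fitted by limma 3.58.1 in R 4.3.3 (lmFit, eBayes with trend), with 1 fit of the 5 groups over 11743 genes of 20089 whose mean reached 0.1 FPKM. Fold changes and their SE are on this scale, which understates changes of low genes. A gene was called changed with a fold above 1.5 or below 0.66, the limits in the study's methods, and a Benjamini-Hochberg adjusted p under 0.05. The code was tested on simulated data.

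Values of low genes are whole multiples of the worth of 1 fragment. Counts were recovered for 14485 genes, giving 18306184 to 20330207 fragments per sample. The recovery returns whole numbers by construction, so their wholeness (100% of values within 0.01) is no check of it. For each gene the counts are fixed only up to a factor shared by its samples. The counts were used for depth and, as an alternative chosen after seeing the data, for limma voom.

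Sample values were to be given for up to 5 called members with the largest change in each comparison with control and a mean of at least 1 FPKM, and for *Sqstm1*, *Map1lc3b*, *Gabarapl1*, *Becn1*, *Atg5* and *Atg7*, and of the other pathway genes the up to 3 largest were named. Values of *Atg9b*, *Atg9a*, *Atg12*, *Pik3c3* and *Gabarap* were added after seeing them. The members and lists were chosen with earlier results of these data known.

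Samples with the same replicate number deviated together in control, RANKL 4 h and LPS 4 h (correlation over 9486 genes of 0.44 to 0.842). Correlations of these groups with RANKL 72 h were lower (0.103 to 0.318) and overlapped those of pairs with LPS 72 h (-0.229 to 0.184). Pairs of unlike number were not compared. Numbers appear to pair the samples of control, RANKL 4 h and LPS 4 h, as read from the data, and for RANKL 72 h this was not settled. The main fit does not pair samples. The alternatives were the pseudocount, the filter, the scaling, the groups in the fit, the trend, the call, the replicate block and leaving out each library. Promoters are from RefSeq (GRCm38.p6) and gene positions from GENCODE (GRCm38).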

Additional observations from a re-analysis of the deposited data

Results flagged for a closer look

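The change from 4 h to 72 h differed between RANKL and LPS for 23 of the 34 autophagy genes by the limma test of that difference itself, adjusted over all tested genes. The values below are the log2 change with RANKL minus the log2 change with LPS, and 49% of all tested genes were called in this test. *Atg9b* was the gene with a positive difference, 1.33. It rests on 2 to 7 fragments per sample in LPS 4 h and was not called by limma voom on recovered fragments (1.09, adjusted p = 0.196).

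Among the other genes of initiation and lipid supply the difference was -0.89 for *Atg13*, -0.97 for *Atg101*, -1.06 for *Atg2a* and -1.79 for *Atg2b*. In the lipid kinase group it was -0.84 for *Becn1*, -1.15 for *Pik3r4*, -1.60 for *Atg14* and -1.45 for *Rubcn*. For the conjugation genes it was -0.63 for *Atg3*, -1.37 for *Atg5*, -0.86 for *Atg7*, -0.97 for *Atg10* and -1.70 for *Atg12*. The proteases gave -0.80 for *Atg4b* and -1.98 for *Atg4c*. In the LC3 and GABARAP family it was -0.83 for *Map1lc3a*, -1.11 for *Map1lc3b*, -0.82 for *Gabarap* and -1.70 for *Gabarapl1*. It was -1.63 for *Nbr1*, -0.99 for *Calcoco1* and -0.91 for *Epg5*. After centring, *Atg9b*, *Atg2b*, *Pik3r4*, *Atg14*, *Rubcn*, *Atg5*, *Atg12*, *Atg4c*, *Map1lc3b*, *Gabarapl1* and *Nbr1* were still called. The call of *Map1lc3a* was lost under 13 of 22 alternatives, among them limma voom and leaving out any 1 of 7 libraries, that of *Epg5* under 9, *Atg3* under 6 and *Atg2a* under 5.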

How the results depend on the processing

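Of 117 gene results past the threshold, 1834 of 2003 alternative values kept call and direction, 169 kept the direction but lost the call (55 by centring, 75 by leaving out 1 library) and 0 turned. With the replicate block, which pairs samples by number, each of the 9 counts equalled that without it (9 for RANKL 72 h and 17 for LPS 4 h against control) and 0 gene calls were lost. The block covered all 15 samples with the same replicate terms, and it was not run on control, RANKL 4 h and LPS 4 h alone. At 72 h pairing by number was not established for either stimulus. The block therefore cannot settle the effect of pairing for comparisons with those groups. It cannot for the comparisons at 4 h either, since the 72 h samples share its terms. Centring on the median gene of each sample moved the count from 17 to 8 for LPS 4 h against control. Over all tested genes the calls there moved from 5650 to 3400. For RANKL 4 h against LPS 4 h the count moved from 20 to 8 (5872 to 3485 over all tested genes). For RANKL 72 h against LPS 72 h it moved from 5 to 9 (4245 to 4282 over all). For RANKL 72 h against RANKL 4 h it moved from 11 to 6 (2732 to 2492 over all). For the difference in change over time it moved from 23 to 12 (5758 to 5075 over all). The cause beyond the shift of the median was not tested. With an adjusted p and no fold limit LPS 72 h against control gave 16 genes. Over all tested genes it gave 4199, against 3212 with the fold limit. RANKL 72 h against LPS 72 h gave 15 without the fold limit, beside 5347 of all tested genes against 4245 with it. With 1 added to FPKM RANKL 72 h against LPS 72 h gave 3, beside 3405 of all tested genes. An unadjusted p gave 2 genes for RANKL 4 h against control, beside 301 of all tested genes.

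Leaving out 1 library gave 0 to 0 genes for RANKL 4 h, 6 to 8 for RANKL 72 h, 15 to 19 for LPS 4 h and 8 to 14 for LPS 72 h against control. It gave 19 to 20 for RANKL 4 h against LPS 4 h, 4 to 11 for RANKL 72 h against LPS 72 h, 6 to 10 for RANKL 72 h against RANKL 4 h, 23 to 24 for LPS 72 h against LPS 4 h and 20 to 23 for the difference in change over time. The ends 14 and 11 are without LPS 72 h replicate 3. Over all tested genes, fits without 1 library called 1 to 15 against control for RANKL 4 h and 2060 to 2758 for RANKL 72 h. They called 5169 to 5718 for LPS 4 h and 2477 to 3959 for LPS 72 h. Between the stimuli they called 5459 to 5807 at 4 h and 3589 to 4846 at 72 h. Over time they called 1939 to 2519 for RANKL, 6281 to 7114 for LPS and 5125 to 6287 for the difference. Depth limits *Atg9b*, with 2 to 116 fragments per sample.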
